A study of Mus musculus with 9 samples.

Results

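Transcripts of 10 genes of the BCL2 family were compared between sorted mouse microglia of 3 groups. The genes were taken by symbol: the survival genes Bcl2, Bcl2l1, Mcl1 and Bcl2a1b, the pore formers Bax and Bak1, and the BH3-only genes Bid, Bcl2l11, Pmaip1 and Bbc3. They are 10 of the 23238 gene symbols counted, and all 10 passed the filter on low counts that left 12292 genes for testing.

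All mice were wild-type (WT) adult female C57BL/6N animals, and brain cells positive for CD45, CD11b and P2ry12 were sorted as microglia at day 1. Normal mice had no treatment. NMO mice received a unilateral injection of patient-derived NMO-IgG with human complement into the striatum, a model of neuromyelitis optica in which antibody and complement damage astrocytes. NMO+CL mice had the same injection and were also given clodronate liposomes intraperitoneally beforehand, which deplete circulating monocytes and macrophages. Each group had 3 libraries, and each library was a pool of 3 mice, so the spread reported here is between pools. The microglia libraries included no group given control IgG or empty liposomes. The injection, the antibody and the complement therefore cannot be told apart, nor can clodronate and its liposome carrier.

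BCL2 family proteins decide whether a cell opens its outer mitochondrial membrane and enters apoptosis. The survival proteins bind and restrain BAX and BAK, which form the membrane pore, and they also capture the BH3-only proteins, which carry stress signals and release or activate the pore formers. Microglia are long-lived cells that depend on signalling through the CSF1 receptor, and BIM, the protein of Bcl2l11, is a mediator of death after the loss of growth factor signals in many blood-derived cells.

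Total counts ran from 5788234 to 7837219 per library. The summed level of 9 microglia markers was 32105 to 36089 CPM (counts relative to library sizes after TMM scaling) in Normal, 27237 to 31971 in NMO and 18549 to 25760 in NMO+CL, and 9 of 9 were detected. In NMO+CL against Normal, edgeR called 6 of the 9 lower (Cx3cr1, Gpr34, Olfml3, P2ry12, Sall1 and Siglech), where 4.43% of all tested genes were lower. DESeq2 called 7 and limma-voom 8, against 12.8% and 8.79% of all tested genes in either direction. By edgeR, 4 were lower in NMO+CL against NMO (1.07% of all tested genes) and 1, Siglech, in NMO against Normal (0.0244%). P2ry12, a marker of the sort, fell in NMO+CL to 0.145 of Normal (2055 to 2665 CPM in Normal, 1558 to 1756 in NMO and 266 to 449 in NMO+CL, edgeR adjusted p = 4.62e-07). The summed level of 9 neutrophil markers, all detected, was 101 to 579 CPM in Normal, 155 to 477 in NMO and 294 to 1346 in NMO+CL, with the highest value in NMO+CL replicate 1. Against Normal, 0 of the 9 passed in NMO+CL by edgeR, where 9.23% of all tested genes did. Before adjustment 3 had an edgeR p under 0.05 (S100a8 and S100a9 with higher and Csf3r with lower values), against 22.3% of all tested genes. DESeq2 called 0 of the 9, and limma-voom called S100a8 and S100a9 higher. Csf3r had a log2 fold change of -0.82 (edgeR adjusted p = 0.139). Of 7 monocyte markers, all were detected and summed to 18.8 to 51.5, 33.9 to 68.3 and 23.9 to 71.6 CPM in the 3 groups in that order. Of 6 border macrophage markers, all were detected, with sums of 158 to 308, 10.8 to 191 and 220 to 412 CPM. Lymphocyte markers summed to 3.73 to 20.6 CPM over the 9 libraries, and Cd3e was at 0 in every one. Markers of astrocytes, oligodendrocytes and neurons summed to 254 CPM in Normal replicate 1 and to 24.5 to 33.7 CPM in the other 8 libraries. Of these markers, edgeR called Meg3 lower in NMO against Normal and Slc1a2 lower in NMO+CL against Normal, DESeq2 called only Slc1a2, in the latter, and limma-voom called none. Early genes of tissue dissociation summed to 4231 to 6131, 4074 to 5591 and 4697 to 5151 CPM, and these sums overlapped. Of the 12 early genes, Ier2 rose in NMO+CL against Normal by a log2 fold change of 1.21 (edgeR adjusted p = 0.0354), DESeq2 called Ier2 and Dusp1, and limma-voom called 0 of the 12. Some genes dropped to 0 in a single library: 66 genes did so in NMO replicate 2, 47 in NMO+CL replicate 3 and 30 in NMO replicate 3 while holding at least 10 counts in each of the other 8, against 2 to 18 genes in the remaining libraries. The libraries are bulk RNA, in which fewer cells of a type and less RNA per cell cannot be told apart.

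In NMO+CL against Normal, Mcl1 and Bcl2 rose and Bcl2l11 fell. These 3 of the 10 genes passed an adjusted p under 0.05 in edgeR's quasi-likelihood test, where 9.23% of all tested genes did so (4.79% higher and 4.43% lower). Mcl1 was 2.02-fold and Bcl2 2.66-fold the Normal level, and Bcl2l11 was 0.506 of it. Between NMO and Normal, 0 of the 10 passed, where 0.496% of all tested genes did (0.472% higher and 0.0244% lower). In this comparison 4 of the 10 had an unadjusted p under 0.05 (Bcl2, Bcl2l1, Bcl2a1b and Bcl2l11), against 9.51% of all tested genes. DESeq2's Wald test called 1 of the 10 (Bcl2), against 1.82% of all tested genes, and limma-voom 0, against 0.35%. Between NMO+CL and NMO, 0 of the 10 passed by edgeR, where 1.59% of all tested genes did (0.529% higher and 1.07% lower). Mcl1 alone had an unadjusted p under 0.05 there, against 12.4% of all tested genes. It was also the 1 gene of the 10 called by DESeq2, against 3.78% of all tested genes, and by limma-voom, against 1.49%. DESeq2 and limma-voom called the same 3 genes as edgeR in NMO+CL against Normal, where they called 12.8% and 8.79% of all tested genes. The 3 comparisons share libraries pairwise, and so each gene's changes are given side by side rather than as separate evidence.

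**Figure D1:**
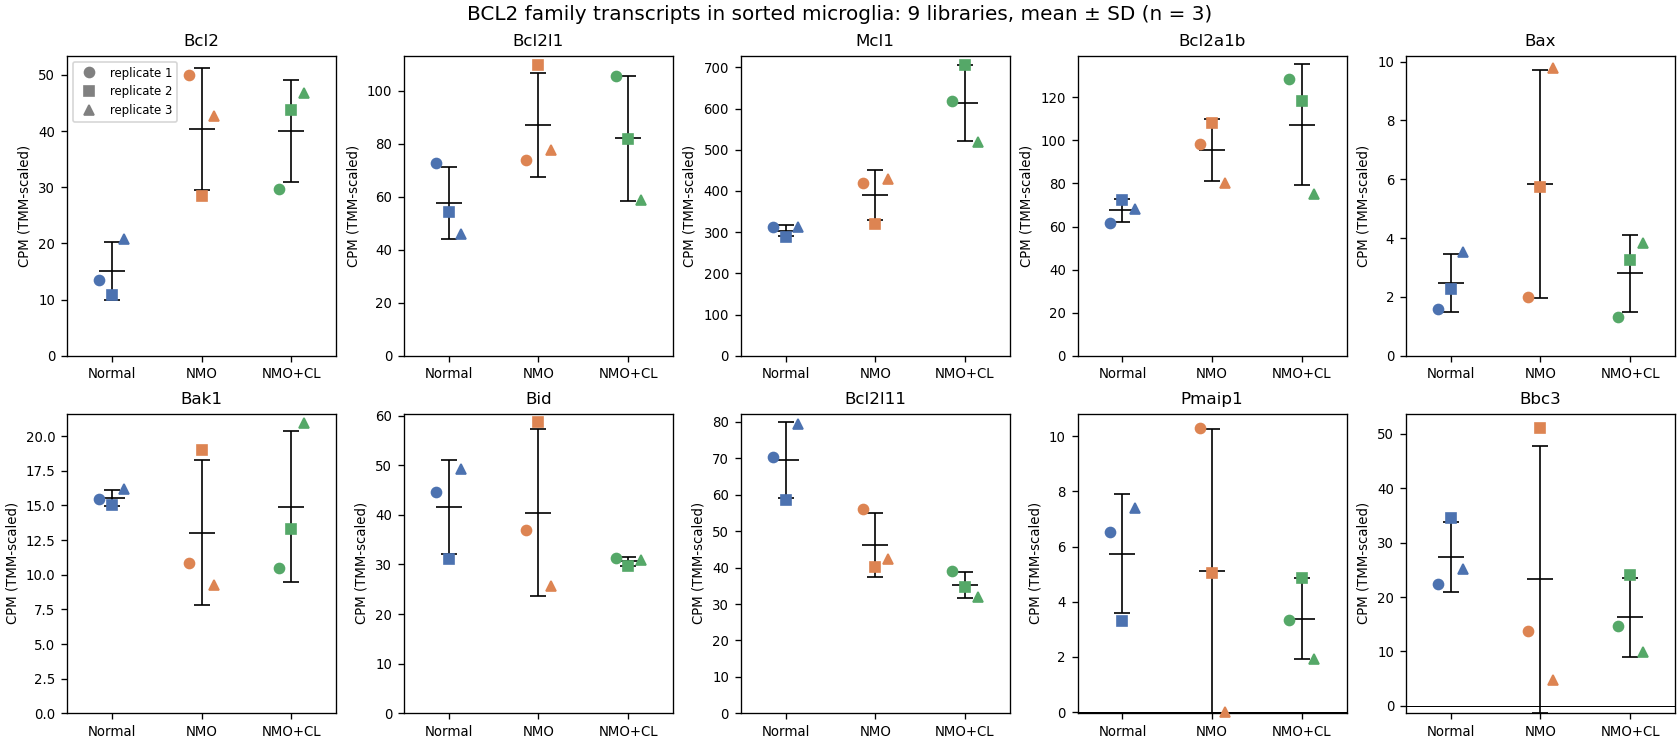
CPM of the 10 BCL2 family genes in each of the 9 libraries by group, with a linear axis in each panel. Points are libraries, marked by replicate number, and black bars are the mean ± SD of 3 libraries. Bcl2 and Mcl1 sit higher in all 3 NMO+CL libraries than in any Normal library, Bcl2l11 sits lower, and Bbc3 and Pmaip1 spread widely within NMO.

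By group separation, all 3 NMO libraries lay above all 3 Normal libraries for 4 of the 10 genes (9.21% of all tested genes) and below them for 1 gene (8.2%). The NMO+CL libraries lay wholly above NMO for 1 gene (7.89%) and wholly below for 1 gene (9.22%). Against Normal, NMO+CL lay wholly above for 3 genes (13.8%) and wholly below for 1 gene (14.9%). The study's text gives thresholds of 1.5-fold with p under 0.05 and does not say whether p was adjusted. Genes past these thresholds were also counted, with p taken before adjustment. By these, 2 genes were higher (Bcl2 and Bcl2l1, 5.2% of all tested) and 1 was lower (Bcl2l11, 2.77%) in NMO against Normal. Mcl1 was the 1 gene past these thresholds in NMO+CL against NMO, where 4.09% of all tested genes were higher and 6.65% lower. Against Normal, 3 were higher in NMO+CL (Bcl2, Mcl1 and Bcl2a1b, 9.9%) and 1 was lower (Bcl2l11, 10.2%). The median log2 fold change of the 10 genes was 0.16, -0.24 and 0.06 in NMO against Normal, NMO+CL against NMO and NMO+CL against Normal, and that of all tested genes was -0.01 in each.

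**Figure D2:**
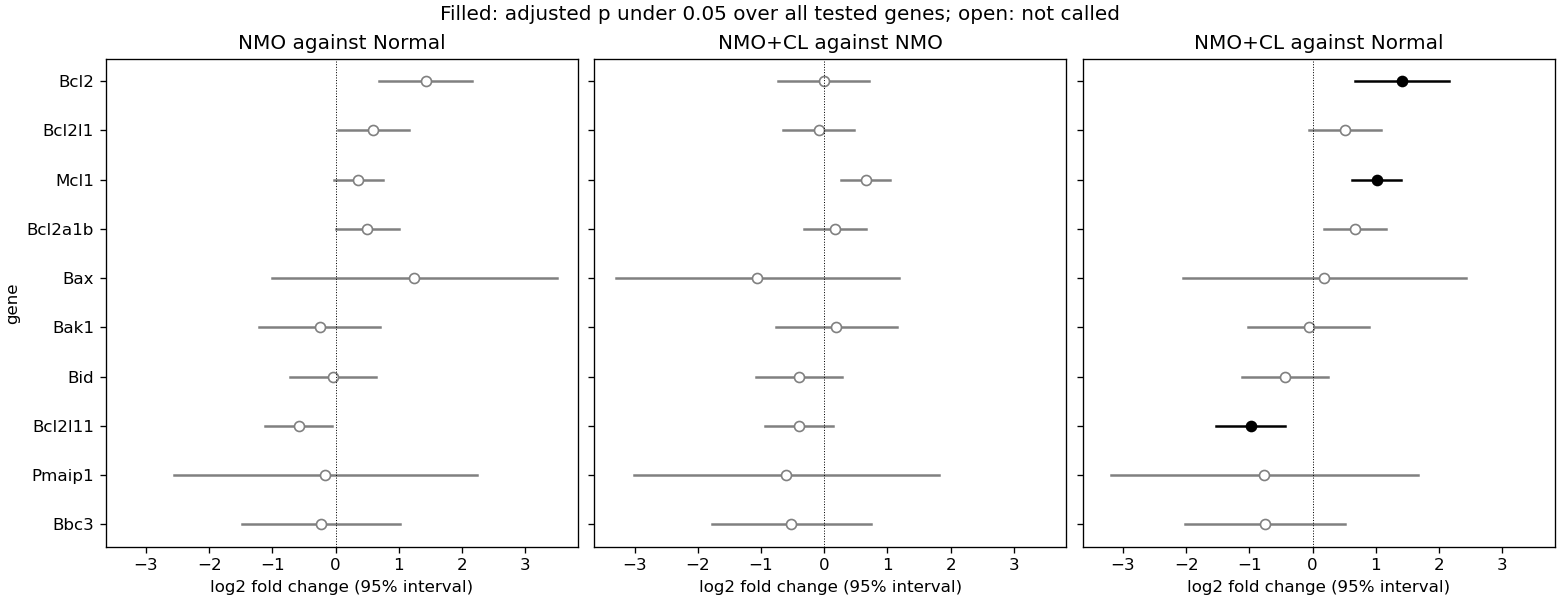
The log2 fold change (x axis) of each of the 10 genes in the 3 comparisons. Points are edgeR estimates, lines are 95% intervals, and filled points passed an adjusted p under 0.05. The filled points are Bcl2, Mcl1 and Bcl2l11 in NMO+CL against Normal, and the intervals of Bax and Pmaip1 are the widest.

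Mcl1 encodes a short-lived survival protein that restrains BAK and must be made continually. The gene lies at chr3:95658788-95663176 on the plus strand (GRCm38). Its level was 311, 287 and 312 CPM in the Normal libraries (304 ± 14.1, SD, n = 3), 419, 320 and 430 CPM in NMO (390 ± 60.3) and 618, 704 and 519 CPM in NMO+CL (614 ± 92.5). The groups were ordered Normal, NMO and NMO+CL, and no library of one group reached into the next, although NMO replicate 2 lay close to the Normal libraries. Mcl1 rose in NMO+CL against Normal by a log2 fold change of 1.02 (SE 0.18, adjusted p = 0.00166). This call held in 17 of 17 alternative settings, with adjusted p up to 0.0161.

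By edgeR with the filter on low counts, Mcl1 passed neither in NMO against Normal nor in NMO+CL against NMO. In NMO against Normal its log2 fold change was 0.36 (SE 0.18, adjusted p = 0.578). Against NMO, its log2 fold change in NMO+CL was 0.66 (SE 0.18, unadjusted p = 0.00217, adjusted p = 0.0896), and the adjusted p was 0.00468 by DESeq2, 0.039 by limma-voom and 0.0491 by edgeR without the filter on low counts, with a range of 0.00468 to 0.365 over 17 alternatives. Of the NMO+CL libraries, replicate 1 had the highest neutrophil marker sum and replicate 2 the highest Mcl1 level, and the part of neutrophil RNA in the Mcl1 values was not tested.

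Bcl2 encodes the founding survival protein of the family, which sits on mitochondria and the endoplasmic reticulum. The gene lies at chr1:106538178-106714274 on the minus strand and shares 558 exon bases with D630008O14Rik on the other strand. Its level was 13.5, 10.8 and 20.9 CPM in Normal (15.1 ± 5.19, n = 3), from 85, 72 and 124 counts. It was 49.9, 28.5 and 42.7 CPM in NMO (40.4 ± 10.9) and 29.8, 43.7 and 46.8 CPM in NMO+CL (40.1 ± 9.07). All 6 libraries of injected mice lay above all 3 Normal libraries, and the NMO and NMO+CL libraries overlapped.

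Bcl2 rose in NMO+CL against Normal by a log2 fold change of 1.41 (SE 0.35, adjusted p = 0.0156). The call did not hold when Normal replicate 1 was left out (adjusted p = 0.0694), nor Normal replicate 2 (0.0869), nor NMO+CL replicate 2 (0.062), and held in 14 of 17 alternatives, with adjusted p from 0.00299 to 0.0869. The estimate in NMO against Normal was of the same size, 1.42 (SE 0.35, unadjusted p = 0.0008), but did not pass over all genes (adjusted p = 0.0841). It passed by DESeq2 (0.0231) and without the filter on low counts (0.0137), with a range of 0.0137 to 0.354 over 17 alternatives. Between NMO+CL and NMO the log2 fold change was -0.01 with a 95% interval of -0.73 to 0.70, an estimate whose sign differed between scalings.

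Bcl2l1 encodes BCL-XL, a survival protein of mitochondria, and lies at chr2:152780668-152831728 on the minus strand. Its level was 72.7, 54.2 and 45.9 CPM in Normal (57.6 ± 13.7, n = 3), 73.8, 110 and 77.7 CPM in NMO (87.1 ± 19.7) and 105, 81.8 and 58.6 CPM in NMO+CL (82.0 ± 23.4). The NMO libraries lay above the Normal ones by a narrow margin, and NMO+CL overlapped both groups. For NMO against Normal the log2 fold change was 0.60 (SE 0.27, unadjusted p = 0.0403, adjusted p = 0.492) and 0.51 in NMO+CL against Normal (SE 0.27, adjusted p = 0.29), and neither passed the test.

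Bcl2a1b encodes A1, a survival protein of white blood cells and a target of inflammatory signalling through NF-kB. The mouse carries several near-identical copies, and the gene lies at chr9:89199209-89207827 on the plus strand. Its level was 61.7, 72.5 and 68.1 CPM in Normal (67.4 ± 5.47, n = 3), 98.2, 108 and 80.1 CPM in NMO (95.4 ± 14.2) and 128, 118 and 75.3 CPM in NMO+CL (107 ± 28.2). All libraries of injected mice lay above the Normal ones, NMO+CL replicate 3 by the least. The log2 fold change was 0.50 in NMO against Normal (SE 0.23, adjusted p = 0.517) and 0.67 in NMO+CL against Normal (SE 0.24, unadjusted p = 0.0111, adjusted p = 0.0882). The latter ran from an adjusted p of 0.0227 without NMO+CL replicate 3 to 0.267 without NMO+CL replicate 1, the library with the highest neutrophil marker sum. The part of neutrophil RNA in the Bcl2a1 values was not tested.

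The copies of Bcl2a1 share reads. Of the 426 stretches of 75 bases, the read length, in the last 500 bases of the Bcl2a1b transcripts of GENCODE M21, 317 (74.4%) also occur in another gene: 207 in Bcl2a1d, 106 in Bcl2a1a and 181 in the overlapping gene model Gm29094. The share was 48.4% for Bcl2a1a and 72.1% for Bcl2a1d. A read that aligned to several copies may have been counted at each, so the split between copies is uncertain and their counts are not independent. Bcl2a1b held 41.6% to 51.5% of the summed counts of the 3 copies over the 9 libraries, and Bcl2a1c was at 0 in all of them.

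The sum of the copies was 127, 141 and 138 CPM in Normal (136 ± 7.23, n = 3), 197, 237 and 162 CPM in NMO (199 ± 37.6) and 264, 284 and 163 CPM in NMO+CL (237 ± 64.7). Fitted as 1 entry, the copies rose in NMO+CL against Normal by a log2 fold change of 0.81 (adjusted p = 0.0293), and in NMO against Normal the value was 0.55 (adjusted p = 0.428). Of the single copies, Bcl2a1a rose in NMO+CL against Normal by 1.15 (SE 0.32, adjusted p = 0.0298), a call held in 10 of 16 alternatives, with adjusted p up to 0.203 without NMO+CL replicate 2. This call was lost by limma-voom and when any Normal library, NMO+CL replicate 1 or NMO+CL replicate 2 was left out. Bcl2a1d had 0.78 (SE 0.26, adjusted p = 0.0768).

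**Figure D3:**
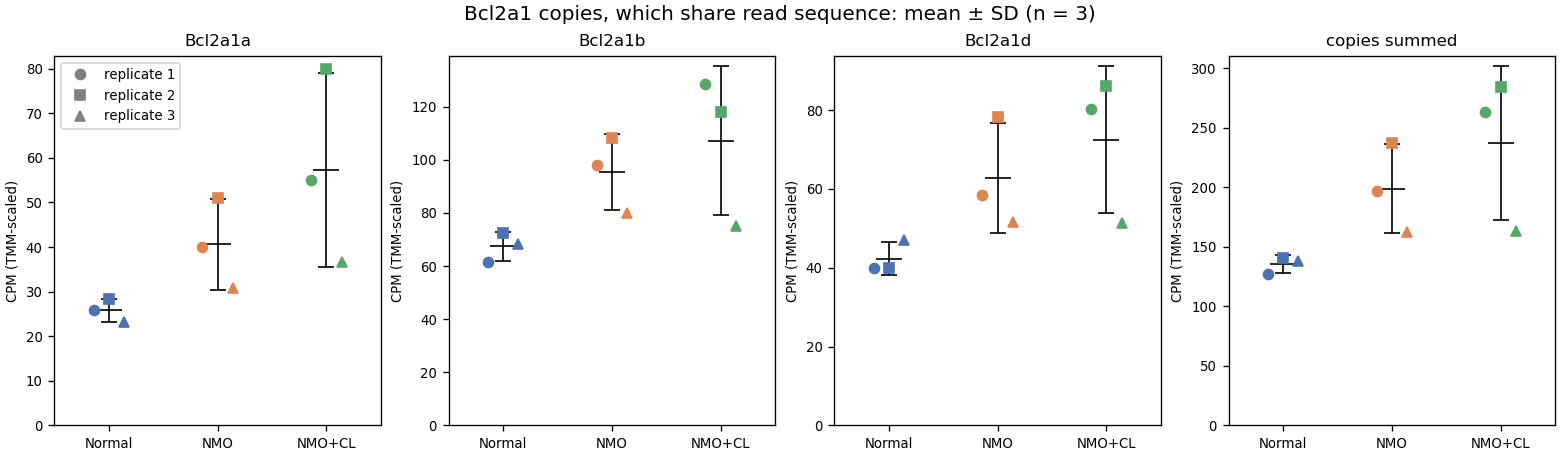
CPM of Bcl2a1a, Bcl2a1b and Bcl2a1d and of the copies summed, in each of the 9 libraries by group. Points are libraries marked by replicate number and bars are the mean ± SD of 3 libraries. In each panel the 3 Normal libraries lie below the libraries of injected mice, and NMO+CL replicate 3 is the lowest of its group.

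The promoters of the 3 copies were read beside these values because the copies share letters there as well. In the RefSeq promoter windows of GRCm38.p6, which run from 250 bases before the start to 50 after it, Bcl2a1a was identical to Bcl2a1b at 254 of 256 aligned bases (99.2%) and to Bcl2a1d at 288 of 294 (98%), leaving out gaps and the ends that did not align. Each window holds an AP-1 motif (TGANTCA, in 7.81% of 32851 promoters) followed by a PU.1 motif (GAGGAAGT, in 3.2%), 2 motifs of factors active in macrophages. The AP-1 pattern searched is a loose one that allows any base at its centre, and all 3 windows read TGAATCA. Both patterns, searched in this way, occur in 93 promoters (0.283%). The stretches below run 5′ to 3′ on the strand of the gene, with the AP-1 motif and then the PU.1 motif in capitals, at chr9:88956770-88956853 (plus) for Bcl2a1a, chr9:89199079-89199162 (plus) for Bcl2a1b and chr9:88731917-88731994 (minus) for Bcl2a1d.
Bcl2a1a: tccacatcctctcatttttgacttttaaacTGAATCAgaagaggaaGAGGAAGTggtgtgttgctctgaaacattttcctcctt
Bcl2a1b: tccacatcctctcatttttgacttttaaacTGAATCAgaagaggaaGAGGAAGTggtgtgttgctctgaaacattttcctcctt
Bcl2a1d: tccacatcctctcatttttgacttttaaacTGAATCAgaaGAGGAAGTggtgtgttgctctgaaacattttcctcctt

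The motifs do not overlap: 9 bases lie between them in Bcl2a1a and Bcl2a1b, and 3 bases in Bcl2a1d. The AP-1 motif starts 120 bases before the annotated start in Bcl2a1a, 164 in Bcl2a1b and 114 in Bcl2a1d. These are matches of letters, and no binding was measured.

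Bax and Bak1 encode the pore formers. Bax, at chr7:45461697-45466898 on the minus strand, had few counts, 9 to 61 per library. Its level was 1.59, 2.26 and 3.53 CPM in Normal (2.46 ± 0.986, n = 3), 2.01, 5.75 and 9.77 CPM in NMO (5.84 ± 3.88) and 1.31, 3.24 and 3.84 CPM in NMO+CL (2.80 ± 1.32). The groups overlapped, and the highest values were in NMO replicates 2 and 3. For NMO against Normal the log2 fold change was 1.24 with a 95% interval of -1.01 to 3.49 (adjusted p = 0.834). The values are compatible with changes across that whole interval, in either direction. Of the 75-base stretches at the end of Bax transcripts, 13.9% also occur in the gene model Gm45808.

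Bak1, at chr17:27019810-27029009 on the minus strand, overlaps exons of Ggnbp1 on the other strand. Its level was 15.5, 15 and 16.2 CPM in Normal (15.6 ± 0.558, n = 3), 10.8, 19.0 and 9.29 CPM in NMO (13 ± 5.24) and 10.5, 13.3 and 21.0 CPM in NMO+CL (14.9 ± 5.42). The Normal libraries were close together and lay within the range of both other groups. The 95% interval of the log2 fold change was -1.21 to 0.71 in NMO against Normal (adjusted p = 0.956) and -1.02 to 0.90 in NMO+CL against Normal (adjusted p = 0.969).

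Bcl2l11 encodes BIM, a BH3-only protein that binds every survival protein of the family, and lies at chr2:128126038-128162547 on the plus strand. Its level was 70.4, 58.7 and 79.4 CPM in Normal (69.5 ± 10.4, n = 3), 56.2, 40.1 and 42.4 CPM in NMO (46.2 ± 8.70) and 39.0, 34.7 and 31.9 CPM in NMO+CL (35.2 ± 3.57). The groups were ordered opposite to those of Mcl1, again with no overlap between neighbours, although NMO replicate 1 was near the lowest Normal library.

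Bcl2l11 fell by 0.98 on the log2 scale in NMO+CL against Normal (SE 0.26, adjusted p = 0.0215). The call held in 13 of 17 alternatives, with adjusted p from 0.00666 to 0.11. It was lost without Normal replicate 1 (0.0697), Normal replicate 3 (0.11), NMO+CL replicate 2 (0.0777) or NMO+CL replicate 3 (0.0561). The single steps did not pass: the log2 fold change was -0.59 in NMO against Normal (SE 0.25, unadjusted p = 0.0337, adjusted p = 0.471) and -0.39 in NMO+CL against NMO (SE 0.26, adjusted p = 0.58). The summed microglia markers had the same order of groups, 32105 to 36089, 27237 to 31971 and 18549 to 25760 CPM, and the part of the markers' change in the Bcl2l11 values was not tested.

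Transcription of Bcl2l11 is a known output of FOXO factors, which are held out of the nucleus by growth factor signalling, and its promoter was therefore read for their motif. Of 2 RefSeq promoter windows, the upstream one holds a FOXO motif (GTAAACA, in 3.65% of all promoters), 227 bases before the start. The stretch below, chr2:128125788-128125847 on the plus strand of GRCm38.p6, has the motif in capitals.
Bcl2l11: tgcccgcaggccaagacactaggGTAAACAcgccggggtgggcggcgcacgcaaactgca

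Promoter windows were found for 9 of the 10 genes, 14 windows in all counting the separate starts of a gene. Both strands were searched for AP-1, PU.1 and FOXO as spelled above, CRE (TGACGTCA, in 1.79% of all promoters), E-box (CACGTG, 7.15%), STAT (TTCNNNGAA, 8.3%), NF-kB (8.46%), the p53 half-site (8.36%) and the SRF CArG box (1.63%). None of these letters occurred in the windows of Bcl2, Mcl1 and Bid, which draws nothing about the factors. FOXO also occurred in 1 window of Bbc3, a p53 half-site and E-boxes in Bax, PU.1 in Bak1, an E-box in 1 window of Bbc3, and NF-kB in 1 window each of Bcl2l1 and Bbc3. The windows of Bcl2 (76% G and C), Bcl2l11 (71% and 74%) and Mcl1 (65.7%) were richer in G and C than the median promoter (52.7%), and those of the Bcl2a1 copies were poorer (44.3% to 46.7%).

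Bid encodes a BH3-only protein that is cut by caspase-8 and links death receptors to mitochondria. It lies at chr6:120891930-120916853 on the minus strand, and 628 of its exon bases overlap Bcl2l13 on the other strand. Where exons overlap in this way, as for Bcl2, Bak1 and Bid, reads of the partner genes cannot be told apart unless strand was used in counting. Its level was 44.6, 31.0 and 49.1 CPM in Normal (41.6 ± 9.44, n = 3), 37.0, 58.7 and 25.6 CPM in NMO (40.4 ± 16.8) and 31.4, 29.6 and 30.9 CPM in NMO+CL (30.6 ± 0.892). The NMO+CL libraries were nearly alike, while NMO held both the highest and the lowest value of all. Against Normal, the NMO+CL libraries had a log2 fold change of -0.44 (SE 0.32, adjusted p = 0.504).

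Pmaip1 encodes NOXA, which binds MCL1 and promotes its removal. It had 0 to 82 counts per library. Its level was 6.53, 3.31 and 7.40 CPM in Normal (5.75 ± 2.16, n = 3), 10.3, 5.03 and 0 CPM in NMO (5.11 ± 5.16) and 3.36, 4.86 and 1.92 CPM in NMO+CL (3.38 ± 1.47). The count of 0 in NMO replicate 3, which allows up to 3 counts, stood beside the highest value of all in NMO replicate 1. The 95% interval of the log2 fold change was -3.18 to 1.66 in NMO+CL against Normal (adjusted p = 0.8), and the values are compatible with changes across it.

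Bbc3 encodes PUMA, a strong BH3-only killer and a target of p53 and of FOXO factors, at chr7:16308393-16318205 on the plus strand. Its level was 22.5, 34.6 and 25.1 CPM in Normal (27.4 ± 6.39, n = 3), 13.8, 51.1 and 4.80 CPM in NMO (23.2 ± 24.6) and 14.7, 24.1 and 9.93 CPM in NMO+CL (16.3 ± 7.23). NMO replicate 2 was the highest of the 9 libraries and NMO replicate 3 the lowest. For NMO against Normal the log2 fold change was -0.23 (SE 0.59, adjusted p = 0.975), and without NMO replicate 2 it was -1.55 (adjusted p = 0.383). Between NMO+CL and NMO it was -0.52 (adjusted p = 0.809), and 0.80 without that library (adjusted p = 0.602). Without NMO replicate 3 these values were 0.23 (adjusted p = 0.964) and -0.98 (adjusted p = 0.469), so the signs depended on which NMO library was left out.

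NMO replicate 2 was also the highest of the 9 libraries for Bid and Bcl2l1, and NMO replicate 3 was the lowest for Bak1, Bid, Pmaip1 and Bbc3. These are 2 of the 3 libraries in which the most genes dropped to 0. The part of library quality in their values was not tested.

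A ratio of counts within a library does not depend on how its size was scaled. Per Bcl2l11 count there were 4.42, 4.90 and 3.93 Mcl1 counts in the Normal libraries (4.42 ± 0.482, n = 3), 7.46, 7.99 and 10.1 in NMO (8.53 ± 1.42) and 15.9, 20.3 and 16.3 in NMO+CL (17.5 ± 2.46). The 3 groups did not overlap. This follows from the single genes, since Mcl1 was higher and Bcl2l11 lower without overlap at each step, and it adds no separate evidence. Per Bcl2l11 count there were 0.192, 0.185 and 0.263 Bcl2 counts in Normal (0.213 ± 0.0430), 0.888, 0.710 and 1.01 in NMO (0.869 ± 0.149) and 0.764, 1.26 and 1.47 in NMO+CL (1.16 ± 0.362). For this ratio Normal lay below both injected groups, which overlapped each other. The separation from Normal is likewise implied by the values of the single genes. The ratios were formed after the values of the single genes had been seen and carry no test.

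**Figure D4:**
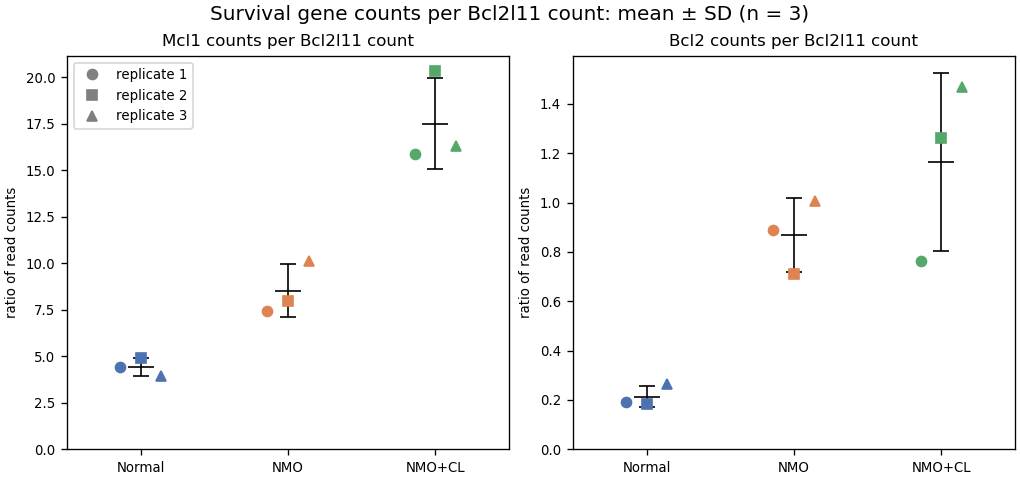
Counts of Mcl1 (left) and of Bcl2 (right) per count of Bcl2l11 in each of the 9 libraries by group, on linear axes from 0. Points are libraries marked by replicate number and bars are the mean ± SD of 3 libraries. The Mcl1 ratio runs from 3.93 to 4.90 in Normal, from 7.46 to 10.1 in NMO and from 15.9 to 20.3 in NMO+CL.

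Whether the step from NMO to NMO+CL differed from the step from Normal to NMO was also tested in the edgeR fit, a contrast chosen after the values had been seen. Of 12292 genes 6 passed, and none of the 10 BCL2 family genes was among them. The second step minus the first was -1.43 for Bcl2 (log2, SE 0.58, unadjusted p = 0.0239, adjusted p = 0.833) and 0.30 for Mcl1 (SE 0.32, adjusted p = 0.97). The different division of the change between steps for Bcl2 and Mcl1 therefore did not pass a test within either gene.

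Of 16 other genes of the family, 11 passed the filter. Bcl2a1c, Bcl2l10 and Bok were at 0 in all 9 libraries, and Hrk (17 counts in all) and Bcl2l14 (20 counts) were too low to test. Against Normal, 1 rose in NMO+CL (Bcl2a1a, above) and 1 fell, where 9.23% of all tested genes were called. The one that fell was Bnip3l, which encodes the mitophagy receptor NIX, by 0.86 on the log2 scale (SE 0.26, adjusted p = 0.0463), from 107 ± 10.5 CPM in Normal to 59.0 ± 14.9 CPM in NMO+CL, a call held in 10 of 17 alternatives with adjusted p up to 0.145. This call was lost when any Normal library, NMO+CL replicate 2 or NMO+CL replicate 3 was left out. It was also lost with library totals alone and with the replicate number as a block. No other gene of this list passed in any comparison by edgeR. Unadjusted p was under 0.05 for 2 of the 11 in NMO against Normal (9.51% of all tested genes) and 1 in NMO+CL against NMO (12.4%), and DESeq2 and limma-voom called 0 in both. Against Normal, DESeq2 called Bcl2a1a, Bcl2a1d and Bnip3l in NMO+CL (12.8% of all tested genes), and limma-voom called Bnip3l but not Bcl2a1a (8.79%). The BH3-only genes Bad and Bmf had log2 fold changes of 0.01 and 0.38 in NMO+CL against Normal (adjusted p = 0.993 and 0.61).

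Among 9 inhibitors of apoptosis, all tested, Naip2 rose and the other 8, Xiap, Cflar and Birc2 among them, did not pass, where 1.59% of all tested genes were called in NMO+CL against NMO and 9.23% against Normal. Naip2 belongs to the BIR-domain family and is best known as a sensor of bacterial proteins in the NLRC4 inflammasome. Its level was 79.5, 94.4 and 89.7 CPM in Normal, 110, 102 and 76.7 CPM in NMO and 184, 231 and 188 CPM in NMO+CL. All 3 NMO+CL libraries lay above the other 6. The log2 fold change was 1.06 against NMO (SE 0.21, adjusted p = 0.0148), lost only without NMO+CL replicate 2 (0.105) among 17 alternatives, and 1.19 against Normal (SE 0.21, adjusted p = 0.00135), called in 17 of 17. It was 0.13 in NMO against Normal (adjusted p = 0.947). Naip2 has close relatives in Naip5 and Naip6, and reads shared between them may have been counted at each.

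Of 14 genes of the p53 pathway, 11 passed the filter, and in NMO+CL against Normal 2 rose and 2 fell, where 4.79% of all tested genes were called higher and 4.43% lower. Cdkn1a, the cell cycle inhibitor p21, rose by 1.15 (SE 0.26, adjusted p = 0.0091, 16 of 17 alternatives, 0.0813 without NMO+CL replicate 2). Aen, a nuclease induced by p53, rose by 1.89 (SE 0.52, adjusted p = 0.027, 12 of 17 alternatives, up to 0.117). The Aen call was lost by limma-voom and without Normal replicate 1 or 3 or NMO+CL replicate 1 or 2. Trp53inp1, a p53-induced stress gene that also takes part in autophagy, fell by 2.16 on the log2 scale (SE 0.55, adjusted p = 0.0191, 13 of 17 alternatives, up to 0.0914). Sesn1, a stress gene induced by p53 and FOXO factors, fell by 1.31 (SE 0.38, adjusted p = 0.0346, 13 of 17 alternatives, up to 0.223). Both of these calls were lost without Normal replicate 3, NMO+CL replicate 2 or NMO+CL replicate 3. Trp53inp1 was also lost without Normal replicate 2, and Sesn1 without Normal replicate 1. The 4 called genes moved in both directions. Bax, Pmaip1 and Bbc3, which p53 also induces, did not pass in NMO+CL against Normal. The 95% intervals of their log2 fold changes were -2.06 to 2.42, -3.18 to 1.66 and -2.01 to 0.51 in that order. These intervals include changes in either direction. Whether p53 activity changed was not tested.

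None of 12 genes of the apoptosome and caspases passed by edgeR in NMO+CL against Normal, where 4 had an unadjusted p under 0.05, against 22.3% of all tested genes. In this list DESeq2 called 0 and limma-voom 1 (Casp8). Of all tested genes edgeR, DESeq2 and limma-voom called 9.23%, 12.8% and 8.79% in this comparison. None of 9 tested death receptor genes passed, with 1 at an unadjusted p under 0.05 and 0 called by DESeq2 and limma-voom. None of 7 genes of MCL1 turnover and BAK partners passed, with 0 at an unadjusted p under 0.05 and 0 called by either tool. In NMO against Normal these 3 lists and the inhibitor and p53 lists had 0 called by any of the 3 tools, and 1, 1, 0, 1 and 2 genes respectively with an unadjusted edgeR p under 0.05. Of all tested genes 9.51% had such a p there, and edgeR, DESeq2 and limma-voom called 0.496%, 1.82% and 0.35%. Between NMO+CL and NMO, Naip2 was the only gene of the 5 lists called by edgeR, DESeq2 also called Cdkn1a, and limma-voom called Naip2 alone. The apoptosome, death receptor and MCL1 turnover lists had 0 called by each tool in that comparison, with 1, 0 and 1 genes at an unadjusted edgeR p under 0.05. Of all tested genes 12.4% had such a p there, and edgeR, DESeq2 and limma-voom called 1.59%, 3.78% and 1.49%.

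**Figure D5:**
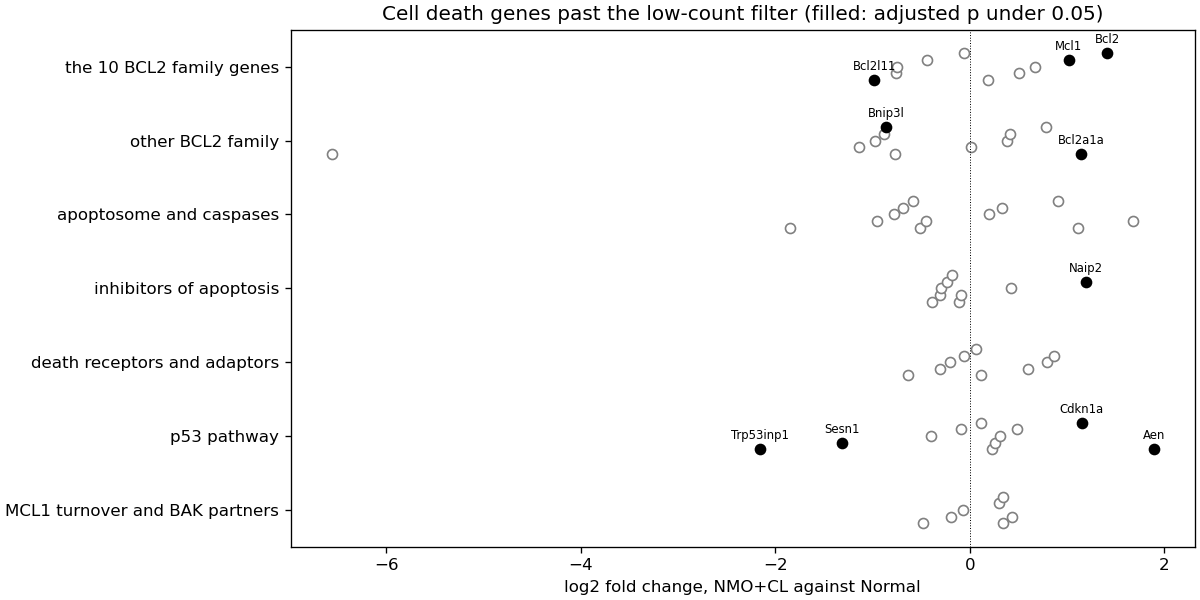
The log2 fold change in NMO+CL against Normal (x axis) of the tested genes of each list (y axis); points are edgeR estimates, and vertical offsets within a list only separate them. Filled, named points passed an adjusted p under 0.05, and the open point at the far left is Bcl2l15, which had 0 counts in all 3 NMO+CL libraries and 1 to 18 in Normal, so its estimate depends on the prior count.

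The genes whose levels ran most like those of the 3 called BCL2 family genes were taken from 8841 tested genes with 50 or more counts on average, by the root-mean-square (RMS) difference of centred log2 CPM over the 9 libraries. For Mcl1 they were the long non-coding RNA Kcnq1ot1 (RMS 0.0974), Polr1a, the largest subunit of RNA polymerase I (0.117), and the deubiquitinase Usp10 (0.138). For Bcl2l11 they were the transcription factor gene Zfhx3 (0.138), Cdkn1b, the cell cycle inhibitor p27 (0.147), and the ribonuclease Rnaset2a (0.147). For Bcl2 they were Ears2, a mitochondrial aminoacyl-tRNA synthetase (0.178), Ppil3 (0.289) and Dis3, a nuclease of the RNA exosome (0.295). The likeness was closer for Mcl1 and Bcl2l11 than for Bcl2, which had fewer counts. These neighbours were picked for their likeness and are a description.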

How the data were processed

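RNA was measured in 9 libraries of sorted microglia, 3 per group. The authors made QuantSeq 3′ libraries for single-end reads of 75 bases, used Bowtie2 for alignment and Bedtools to count unique and multiple alignments per gene, on mm10 per the submitters' processing notes. The deposited values are raw read counts. Which annotation was counted, and whether by strand, is not given in the sources used here. Reads of copies may count at each, and oligo-dT priming reads transcript ends, so isoforms such as those of Bcl2l1, Bcl2l11 and Mcl1 are not told apart.

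Entries of a repeated symbol (35 symbols) were summed. Genes were kept by filterByExpr (minimum count 10, minimum total 15), scaled by TMM (trimmed mean of M values) and fitted with edgeR 4.0.16 (R 4.3.3) in 1 quasi-likelihood model of 9 libraries. Tests were two-sided with Benjamini-Hochberg adjustment over all 12292 genes, called at an adjusted p under 0.05. DESeq2 1.42.0, limma 3.58.1 (voom) and the other alternatives are given in the closing section. The thresholds of 1.5-fold and p under 0.05 follow the study, and taking p before adjustment was a choice made here. Errors are SD between libraries, whose pools the study's methods call independent biological replicates, and a floor of 3 counts covers counting error only. Libraries of a group differed by more than counting error (chi-square per degree of freedom 21.9 to 51.1).

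The genes, lists and tests were chosen with earlier results of these data known. Named were the 10 genes in full, the Bcl2a1 copies, list genes called in any comparison and the 3 genes most like each called one; other list genes were named after their values were seen. Annotations are from GENCODE M21 (GRCm38) and promoters from RefSeq (GRCm38.p6).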

Additional observations from a re-analysis of the deposited data

How the results depend on the processing

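The 17 alternatives left out each of the 9 libraries in turn or changed the processing. Changes were DESeq2 size factors, library totals alone, no filter on low counts, the DESeq2 and limma-voom tests and the replicate number as a block. Others left out Rn45s or summed the Bcl2a1 copies. For NMO+CL against Normal, leaving out an NMO library removes none of the libraries compared. Over 17 alternatives, 835 of 912 gene results kept their direction and side of the threshold, 35 lost a call, 13 gained one and 29 changed sign. All sign changes were in values that had not passed. In NMO against Normal, the count of BCL2 family genes called went from 0 to 1 (Bcl2) without the filter on low counts and to 1 (Bcl2) with DESeq2. In NMO+CL against NMO it went from 0 to 1 (Mcl1) without the filter, to 1 with DESeq2 and to 1 with limma-voom. In NMO+CL against Normal it was 3 and ran from 1 (Mcl1) to 3 when single libraries were left out, with 1 without Normal replicate 1 and 1 without NMO+CL replicate 2. It was 4 with the Bcl2a1 copies summed. Over all tested genes, edgeR called 58 higher and 3 lower in NMO against Normal, DESeq2 162 and 62, and edgeR without the filter 185 and 38; in NMO+CL against NMO these were 65 and 131, 191 and 274, and 180 and 316. The cause of these shifts was not tested. With the replicate number as a block the counts were 0, 0 and 3, and the block ended the call of Bnip3l (adjusted p = 0.0646). Same-numbered libraries did not deviate together (correlations of -0.0148 to 0.0302 over 9 pairs), so the numbers were not treated as pairs.

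Sign changes in NMO against Normal were Bid with library totals alone (0.0785), and, with single libraries left out, Bid (-0.41 to 0.19), Pmaip1 (-1.20 to 0.40), Bbc3 (-1.55 to 0.23) and Sesn1 (-0.45 to 0.10). In NMO+CL against NMO they were Bcl2 with DESeq2 size factors (0.0171), DESeq2 (0.0171), limma-voom (0.00339) and the replicate block (0.00495), Pmaip1 with limma-voom (0.74), and, with single libraries left out, Bcl2 (-0.21 to 0.19), Bcl2l1 (-0.31 to 0.12), Bak1 (-0.14 to 0.57), Pmaip1 (-1.17 to 0.44) and Bbc3 (-0.98 to 0.80). In NMO+CL against Normal they were Bak1 with library totals alone (0.00136), and, with single libraries left out, Bax (-0.11 to 0.53) and Bak1 (-0.39 to 0.14). Bax (9 to 61 counts per library) and Pmaip1 (0 to 82) had the lowest counts of the 10 genes.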
